A study of Zea mays with 57 samples.

Results

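Maize seedlings that had gone without nitrogen were given nitrogen or KCl, and the shoots taken 120 min later, at the last of 9 times, are compared here. All seedlings were of the inbred line B73, were 10 days old, grew under 16 h of light and 8 h of dark, lost their endosperm by hand, and then spent 2 days without nitrogen. The nitrogen group was moved to a medium with 20 mM KNO3 and 20 mM NH4NO3, of which 10% of the nitrogen was 15N, and the KCl group to 20 mM KCl, both 2 h after lights on. A start group was harvested at 0 min, with no transfer. The nitrogen and KCl media also differ in chloride and in total salt, which cannot be told apart from nitrogen. The libraries labelled nitrogen or KCl at 120 min number 6 of the 57 of the series, 3 from each medium. Each library is a pool of tissue from 3 seedlings, so p-values measure the spread between pools.

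Plants take up nitrate and ammonium through transporters in the root. Nitrate is carried to the shoot in the xylem, reduced by nitrate reductase and nitrite reductase, and built with ammonium into glutamine and glutamate. In well studied plants such as Arabidopsis nitrate is also a signal: transcription factors of the NLP family act on it within minutes and switch on genes for uptake, reduction and the supply of reducing power, and others such as the NIGT1 repressors follow later to damp the response. The count table gives nuclear genes by ID only, and 0 of its 44146 nuclear IDs occur in the table of gene names used here, so nuclear genes are described by ID and position and no role is given to them. For the same reason lists of transporters, reductases, glutamine enzymes and cell type markers had no member that could be counted. The identity of the shoot tissue rests on the labels, since plastid transcripts cannot settle it with no other tissue to compare.

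Nitrogen replicate 3 held 8560 counts and was left out of all means and tests, which leaves 2 nitrogen against 3 KCl libraries. Nitrogen replicates 1 and 2 held 4603161 and 2562456 counts, and KCl replicates 1, 2 and 3 held 1948237, 2640514 and 3620327. Without nitrogen replicate 3, totals over the series ran from 1057488 to 5684785. KCl replicate 3 stood apart from its mates. A chi-square of counts over genes gave 7.05 and 8.08 per degree of freedom between it and KCl replicates 1 and 2. The value was 3.34 between KCl replicates 1 and 2 and 2.84 between nitrogen replicates 1 and 2. It reached 6.21 between nitrogen replicates 2 and 3 at 60 min. Start replicate 3 also differed from its mates, at 3.98 and 4.39, against 1.74 between start replicates 1 and 2. The measure was not adjusted for depth, and KCl replicate 3 held the most counts of the KCl libraries. Values without it are given for the counts of called genes and for the called genes named by rule whose fold change it moved by over 1.5 times. Plastid transcripts were present in every library and made up 0.224% and 0.25% of the counts in nitrogen replicates 1 and 2, against 0.447%, 0.271% and 0.419% in KCl replicates 1, 2 and 3.

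After 120 min 184 of 18771 genes tested, or 0.98%, differed between nitrogen and KCl shoots. In nitrogen 85 genes were higher (0.453% of those tested) and 99 were lower (0.527%), by edgeR's quasi-likelihood test at an adjusted p under 0.05. At an unadjusted p under 0.05 there were 2107 genes, or 11.2%. The median log2 change over all genes tested was -0.01. The higher genes included large differences: 59 of 85 were over 2-fold, 24 over 4-fold and 15 over 8-fold, with a median log2 change of 1.33. Among the lower genes 53 of 99 were over 2-fold, 7 over 4-fold and 1 over 8-fold, with a median of -1.07. There were 76 higher and 15 lower genes without KCl replicate 3. A lower level in a bulk shoot can come from fewer cells of a type or from less RNA per cell, and these cannot be told apart.

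**Figure D1:**
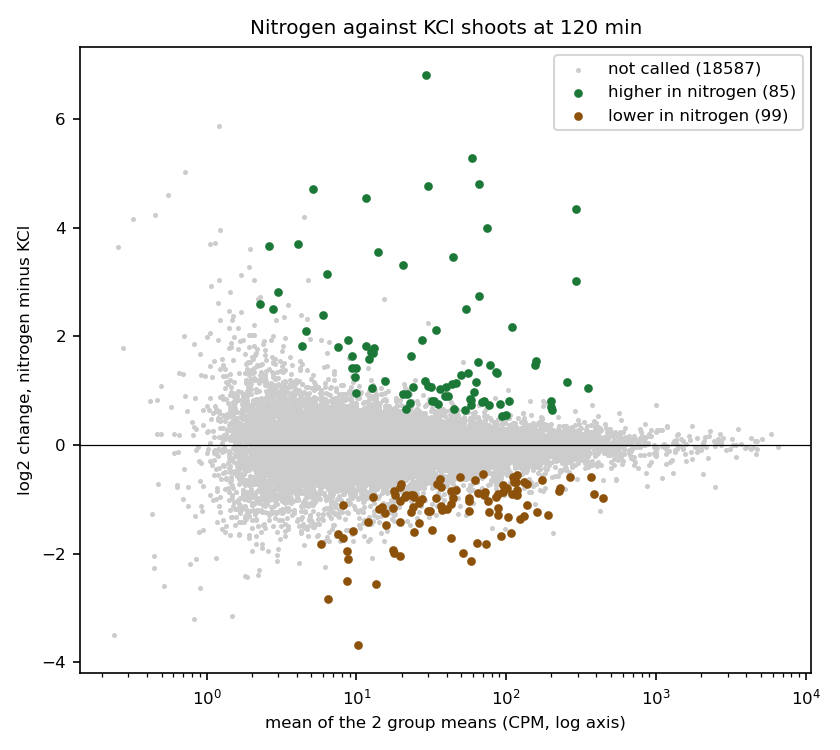
Each point is 1 of the 18771 genes tested; the x axis is the mean of the nitrogen and KCl group means in CPM, TMM-scaled counts per 1000000 (log axis) and the y axis the log2 change, nitrogen minus KCl, at 120 min. The 85 genes called higher in nitrogen reach a log2 change of 6.80 and the 99 called lower reach -3.68, while the median over all genes is -0.01.

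The largest differences were in genes nearly silent in KCl and strongly expressed in nitrogen. Levels are TMM-scaled counts per 1000000 (CPM), and log2 changes are edgeR estimates. Genes named for their change at 120 min had to show no overlap between nitrogen and KCl libraries, so that separation follows from the choice. Zm00001d038718 (chromosome 6, 163324435 to 163325813, minus strand, AGPv4) had 71.1 and 45.4 CPM in nitrogen replicates 1 and 2, against 0, 0.383 and 0.808 CPM in KCl replicates 1, 2 and 3. The start libraries held 0.761, 0.292 and 1.38 CPM, so both nitrogen libraries lay far above every library of the other groups. Its log2 change was 6.80 (SE 0.515, edgeR adjusted p = 5.29e-14). Zm00001d018161 (chromosome 5, 215727084 to 215730071, minus strand) had 128.6 and 102 CPM in nitrogen, against 0, 1.15 and 5.92 CPM in KCl and 0.761, 0.292 and 0.345 CPM at the start. The groups were again apart, and the highest KCl library was replicate 3. The log2 change was 5.28 (SE 0.389, edgeR adjusted p = 5.29e-14), and 7.36 without KCl replicate 3. Zm00001d048020 (chromosome 9, 148178266 to 148179408, plus strand) had 135.8 and 119.7 CPM in nitrogen, against 4.12, 1.15 and 7.27 CPM in KCl and 2.66, 12.3 and 0.69 CPM at the start. Here too no KCl or start library came near the nitrogen level, and the log2 change was 4.81 (SE 0.519).

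A gene of higher level behaved alike. Zm00001d034345 (chromosome 1, 290272584 to 290276056, minus strand) had 607 and 509 CPM in nitrogen, against 22.2, 25.6 and 32.8 CPM in KCl and 38.4, 38 and 29 CPM at the start. Its replicates were close within each group, and it had the smallest adjusted p of the comparison: the log2 change was 4.35 (SE 0.178, edgeR adjusted p = 6.14e-25). Zm00001d049187 (chromosome 4, 19755800 to 19757563, minus strand) had 576 and 463 CPM in nitrogen, against 55.1, 64.3 and 71.6 CPM in KCl and 74.6, 65.5 and 64.2 CPM at the start. KCl and start libraries overlapped and nitrogen libraries lay above both, at a log2 change of 3.02 (SE 0.162). Zm00001d033543 (chromosome 1, 266535576 to 266537890, plus strand) had 60.9 and 54.3 CPM in nitrogen, against 3.09, 2.3 and 1.35 CPM in KCl and 3.05, 2.92 and 3.79 CPM at the start. Its log2 change was 4.77 (SE 0.284), but it overlaps the model Zm00001d033544, and with no strand option in the counting reads of the 2 models cannot be told apart. The regulator gene Zm00001d033347 (chromosome 1, 259828724 to 259831189) had 31.2 and 20.4 CPM in nitrogen, against 2.58, 2.3 and 1.89 CPM in KCl, a log2 change of 3.55 (SE 0.45). Zm00001d038291 (chromosome 6, 153560369 to 153560833) had 13.9 and 9.24 CPM in nitrogen, against 0.515, 0.383 and 2.42 CPM in KCl, a log2 change of 3.14 (SE 0.546). Without KCl replicate 3 the log2 changes were 7.79 for Zm00001d038718, 5.69 for Zm00001d048020 and 4.60 for Zm00001d038291, all still called.

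The genes followed here had climbed in nitrogen by 60 min. Zm00001d034345 had nitrogen means of 35.1 CPM at 5 min, 116.2 after 20 min, 318 at 45 min, 530.4 after 60 min, 611 at 90 min and 558 after 120 min, and KCl means between 23.4 and 29.5 CPM at all 9 times. Most of its rise thus fell between 20 and 60 min, and it stood near its highest level at 90 and 120 min. Zm00001d049187 averaged 66.7 CPM in nitrogen at 5 min, 100.7 after 20 min, 477 at 60 min, 625 after 90 min and 519 at 120 min. Zm00001d038718 averaged 3.36 CPM in nitrogen at 20 min, 39.3 after 60 min and 58.3 at 120 min, its highest mean of the course. Zm00001d018161 averaged 8.3 CPM in nitrogen at 20 min, 162.6 after 60 min and 115.3 at 120 min, so its mean was past its highest at 120 min. Its KCl means were at most 1.23 CPM up to 90 min and 2.36 CPM at 120 min. For these 4 genes and Zm00001d033543 the difference between the media at 120 min was not called different from that at 60 min, with edgeR adjusted p from 0.0702 to 0.913. Zm00001d044138 (chromosome 3, 220166617 to 220170536, minus strand) behaved otherwise. It had 163 and 118.5 CPM in nitrogen at 120 min, against 4.12, 4.21 and 15.4 CPM in KCl, with a log2 change of 4.0 (SE 0.365), or 5.07 without KCl replicate 3, but its nitrogen mean had been 617 CPM at 60 min and 314 CPM at 90 min. Its difference was smaller at 120 min than at 60 min by 3.26 on the log2 scale (SE 0.683, edgeR adjusted p = 0.0208). This call did not hold in 5 of 21 alternatives, among them the fit without KCl replicate 3 at 120 min.

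**Figure D2:**
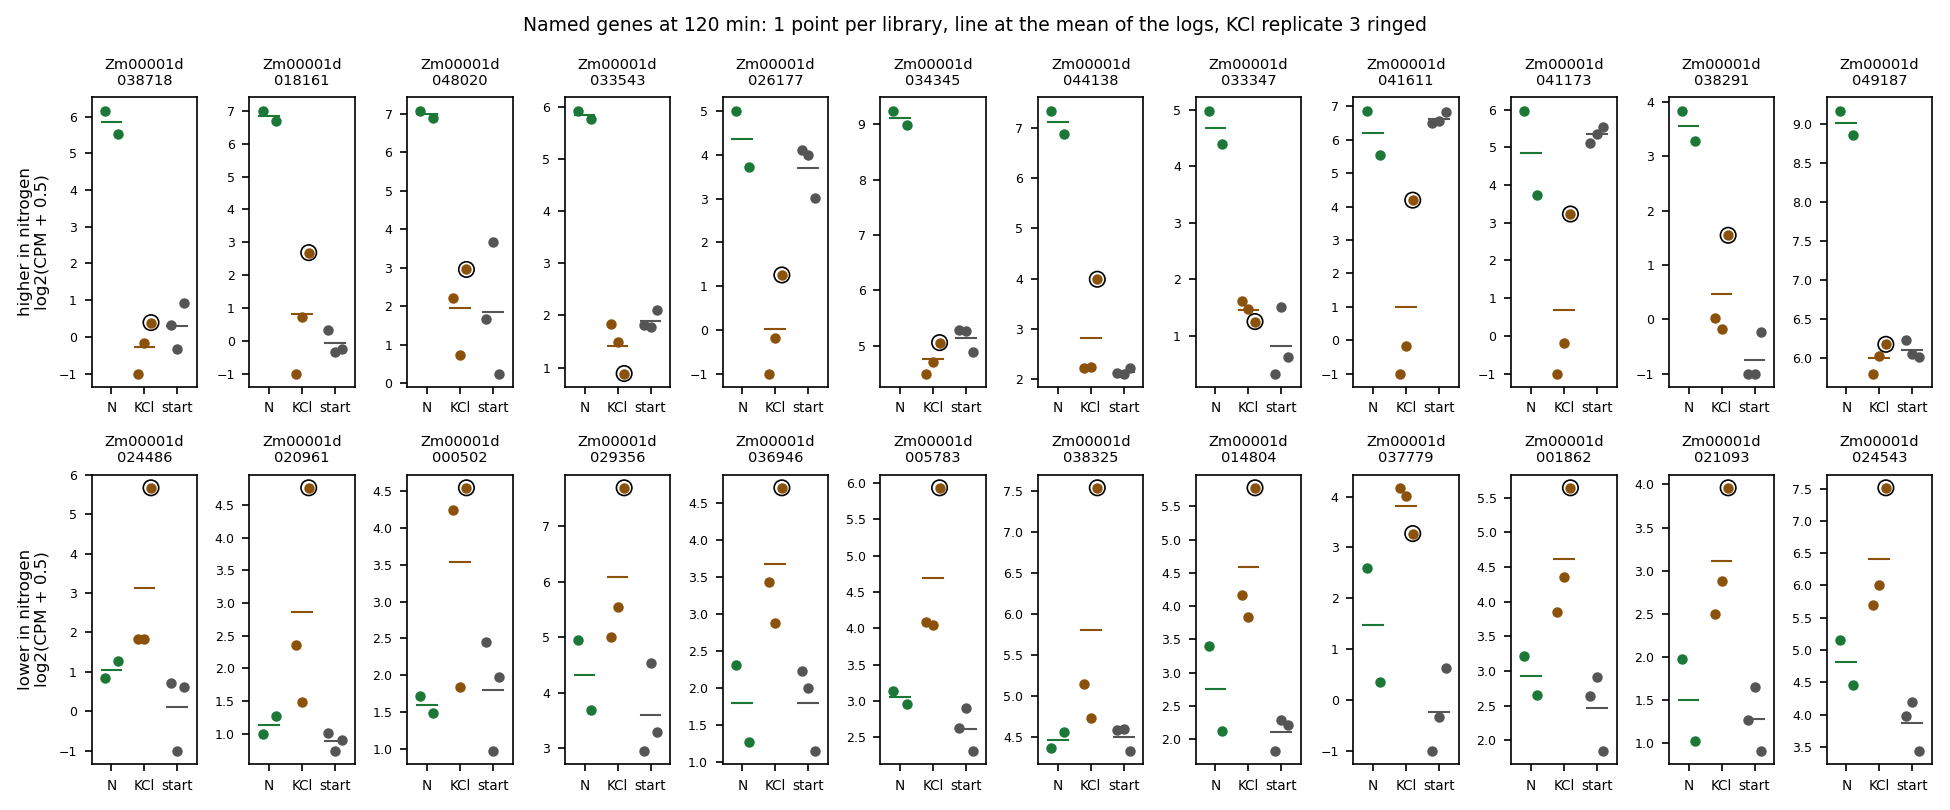
Each panel is 1 gene of the 12 largest changes in each direction at 120 min; points are libraries of nitrogen (N) and KCl at 120 min and of the start, lines are the means of the log2 values, and the y axis is log2(CPM + 0.5). The gap between nitrogen and KCl libraries in each panel follows from that choice. In 11 of the 12 panels of the lower row the ringed point, KCl replicate 3, is the highest of all points.

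In other genes the difference came with a low KCl level, and nitrogen stood near the start. Zm00001d041611 (chromosome 3, 129670740 to 129671244, plus strand) had 116.8 and 46.2 CPM in nitrogen, against 0, 0.383 and 17.8 CPM in KCl and 89.5, 93.3 and 114.5 CPM at the start. Nitrogen libraries surrounded the start libraries, and KCl libraries lay below both. The log2 change was 3.45 between the media (SE 0.853, edgeR adjusted p = 0.0253), -0.25 for nitrogen against the start and -3.70 for KCl against the start. Zm00001d041173 (chromosome 3, 102052605 to 102057121, plus strand) had 62.4 and 12.7 CPM in nitrogen, against 0, 0.383 and 8.88 CPM in KCl and 34.3, 40.6 and 46.2 CPM at the start, a log2 change of 3.32 between the media (SE 0.866, edgeR adjusted p = 0.04). Zm00001d026177 (chromosome 10, 140377176 to 140378531, plus strand) had 31.8 and 12.7 CPM in nitrogen, against 0, 0.383 and 1.89 CPM in KCl and 16.8, 15.5 and 7.59 CPM at the start. Its log2 change was 4.54 between the media (SE 0.805, edgeR adjusted p = 0.000627). The nitrogen replicates differed more in these 3 genes than in those that climbed, and all 3 lost the call without nitrogen replicate 1 (edgeR adjusted p = 0.391, 0.764 and 0.123). Zm00001d041611 and Zm00001d041173 also lost it without KCl replicate 1 (edgeR adjusted p = 0.0823 and 0.103) or replicate 2 (0.0752 and 0.0969), in DESeq2 and when the 5 libraries were fitted alone. Without KCl replicate 3 the log2 changes were 8.29 for Zm00001d041611, 7.22 for Zm00001d041173 and 6.46 for Zm00001d026177, all called, but KCl then held 1 count of each gene and these estimates are no bounds. KCl was already low at 10 min, with means of 2.26 CPM for Zm00001d041611, 0.895 CPM for Zm00001d041173 and 0.19 CPM for Zm00001d026177.

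Of the 85 higher genes 20 were also called when the 5 libraries were fitted alone, without the spread of the other groups. All 85 higher genes had nitrogen libraries above every KCl library, as had 11.8% of all genes tested. Beside the genes above, the 20 include smaller and tight differences. Zm00001d024633 (chromosome 10) had 193.5 and 165.9 CPM in nitrogen, against 40.2, 41.7 and 37.4 CPM in KCl, a log2 change of 2.18 (SE 0.149, edgeR adjusted p = 6.70e-16). Zm00001d025015 (chromosome 10) had 133.7 and 96.6 CPM in nitrogen, against 13.9, 16.8 and 19.9 CPM in KCl, a log2 change of 2.74 (SE 0.261). Zm00001d011965 (chromosome 8) had 254 and 201 CPM in nitrogen, against 83, 83.4 and 78.9 CPM in KCl and 130.9, 120.5 and 104.9 CPM at the start. In this gene the start lay between the media, at log2 changes of 0.94 for nitrogen and -0.54 for KCl against the start. Zm00001d031659 (chromosome 1) had 127.1 and 121.2 CPM in nitrogen, against 47.9, 51.3 and 49.3 CPM in KCl, a log2 change of 1.33 (SE 0.126, edgeR adjusted p = 6.48e-11). Replicates of these 4 genes differed by far less than the media did. They fall outside the rule for naming and were chosen after their values were seen.

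The 99 lower genes rested on KCl replicate 3 to a much larger extent. In 92 of them nitrogen libraries lay below every KCl library, as in 11.2% of all genes tested. KCl replicate 3 was the highest of the 3 KCl libraries in 86 of them (86.9%), against 45.1% of all genes with a negative change. Zm00001d024486 (chromosome 10, 73708902 to 73712703, minus strand) had the most negative change: 1.28 and 1.92 CPM in nitrogen, against 3.09, 3.06 and 50.3 CPM in KCl and 1.14, 0 and 1.03 CPM at the start. A single KCl library set that value, and the log2 change of -3.68 (SE 0.816, edgeR adjusted p = 0.00996) was -0.98 without it (edgeR adjusted p = 0.839). Zm00001d038325 (chromosome 6, 154463287 to 154465019, minus strand) had 20.1 and 23.1 CPM in nitrogen, against 35, 26 and 184.7 CPM in KCl and 23.6, 23.7 and 19.7 CPM at the start. KCl replicates 1 and 2 lay just above the nitrogen libraries and replicate 3 far above, and a log2 change of -1.99 (SE 0.459) became -0.50 without it. Zm00001d029356 (chromosome 1, 67228813 to 67231314, minus strand) had 30.3 and 12.3 CPM in nitrogen, against 31.4, 46.3 and 206.8 CPM in KCl, a log2 change of -2.13 that was -0.81 without KCl replicate 3. The regulator gene Zm00001d024543 (chromosome 10, 77529347 to 77533684) had 35 and 21.6 CPM in nitrogen, against 51.5, 63.9 and 182 CPM in KCl and 15.2, 17.8 and 10.4 CPM at the start. Nitrogen lay below KCl in every library, as the choice of genes by change required. The log2 change of this gene, -1.81 (SE 0.326), was -1.0 without KCl replicate 3 (edgeR adjusted p = 0.121).

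The other named lower genes are Zm00001d020961 at a log2 change of -2.83, Zm00001d000502 at -2.51, Zm00001d036946 at -2.09, Zm00001d005783 at -2.04, Zm00001d014804 at -1.99, Zm00001d001862 at -1.94 and Zm00001d021093 at -1.82. In each of these 7, KCl replicate 3 was the highest library, and without it their log2 changes lay between -1.95 and -0.99 and the edgeR adjusted p between 0.14 and 0.769. Zm00001d000502 was high in a second KCl library as well, with 2.78 and 2.31 CPM in nitrogen, against 18.6, 3.06 and 22.9 CPM in KCl. In 1 of the 12 another KCl library was the highest, Zm00001d037779 (chromosome 6, 137396807 to 137399127, plus strand). It had 5.55 and 0.77 CPM in nitrogen, against 17.5, 15.7 and 9.15 CPM in KCl and 0, 0.292 and 1.03 CPM at the start, so KCl replicate 3 was the lowest KCl library. Its log2 change between the media was -1.95 (SE 0.494, edgeR adjusted p = 0.0315), and -2.20 without KCl replicate 3. This call also rested on single libraries: it was lost without KCl replicate 1 or 2 (edgeR adjusted p = 0.0805 and 0.0505) and without nitrogen replicate 2 (-1.31, edgeR adjusted p = 0.537), while the change was -4.09 without nitrogen replicate 1. Both media stood above the start, by 2.87 for nitrogen and 4.81 for KCl on the log2 scale, and at 5 to 90 min its means had been at most 0.678 CPM in nitrogen and 1.55 CPM in KCl.

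Without KCl replicate 3, 12 of the 99 lower genes were still called, against 52 of the 85 higher genes. The median change of the 99 was then -0.69 and that of the 85 was 1.40. Leaving out nitrogen replicate 2 left 8 of the 99 and 49 of the 85 called, and leaving out nitrogen replicate 1 left 32 and 34. Fitted on the 5 libraries alone, 0 of the 99 were called in edgeR, although 99 had an unadjusted p under 0.05 there, and DESeq2 on all groups called 80 of them. Of the 12 called without KCl replicate 3, Zm00001d020614 (chromosome 7) had 147.6 and 70.8 CPM in nitrogen, against 313, 241 and 263 CPM in KCl and 44.5, 34.2 and 41 CPM at the start. Its level was above the start in both media and higher in KCl, at a log2 change of -1.29 between the media (SE 0.237, edgeR adjusted p = 0.000964). Zm00001d039037 (chromosome 6) had 59 and 57 CPM in nitrogen, against 118, 104.9 and 112.8 CPM in KCl, a log2 change of -0.95 (SE 0.194). Zm00001d024187 (chromosome 10) had 50.8 and 38.9 CPM in nitrogen, against 82.4, 73.5 and 95.8 CPM in KCl, a log2 change of -0.89 (SE 0.158). In these 3 genes the KCl libraries lay close together and nitrogen below them, but all 3 lost the call without nitrogen replicate 2 (edgeR adjusted p = 0.238, 0.104 and 0.0993), and Zm00001d039037 also without nitrogen replicate 1 (edgeR adjusted p = 0.0832). Of the same 12, Zm00001d000294 and Zm00001d051163 each lost the call in 1 of 15 alternatives, the fit of the 5 libraries alone. Zm00001d000294 had 58.1 and 44.3 CPM in nitrogen, against 92.7, 96.8 and 184.1 CPM in KCl. Its log2 change was -1.29, or -0.87 without KCl replicate 3. Zm00001d051163 had 89.7 and 88.9 CPM in nitrogen, against 130.9, 136.6 and 161 CPM in KCl. Its log2 change was -0.68, or -0.58 without KCl replicate 3. All genes described here were chosen after their values were seen.

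The summed counts of the called genes set the media beside the start. The genes were chosen on the nitrogen and KCl libraries shown, so the gap between those is a description. The 85 higher genes took 0.777% and 0.683% of the counts in nitrogen replicates 1 and 2, against 0.271%, 0.268% and 0.265% in KCl and 0.405%, 0.417% and 0.41% at the start. Start libraries lay between the media for this group. Nitrogen replicate 3, which took no part in choosing the genes, held 37 counts on them, or 0.432% (exact 95% interval 0.304% to 0.595%, counting error only). It lay above the KCl libraries and below both other nitrogen libraries, and its interval held the start values. The 99 lower genes took 0.519% and 0.437% in nitrogen, against 0.805%, 0.692% and 1.32% in KCl and 0.415%, 0.448% and 0.424% at the start. For this group nitrogen lay near the start and KCl above it. The comparisons with the start share the libraries at 120 min with the comparison between the media, so their values are given only side by side. The median log2 change of the 85 genes was 0.81 for nitrogen and -0.45 for KCl against the start, and that of the 99 genes was 0.25 for nitrogen and 1.32 for KCl, beside -0.01 for nitrogen and -0.01 for KCl over all genes tested. In all, 275 genes (1.47%) differed between nitrogen at 120 min and the start, 192 higher (1.02%) and 83 lower (0.442%). KCl at 120 min differed from the start in 2096 genes (11.2%), 1276 higher (6.8%) and 820 lower (4.37%). The 2 directions were nearly even without KCl replicate 3, at 445 higher and 448 lower, and the authors' quantile-normalized table, which lacks that library, gave 479 higher and 543 lower. These contrasts span the transfer and the time of day as well as the medium.

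**Figure D3:**
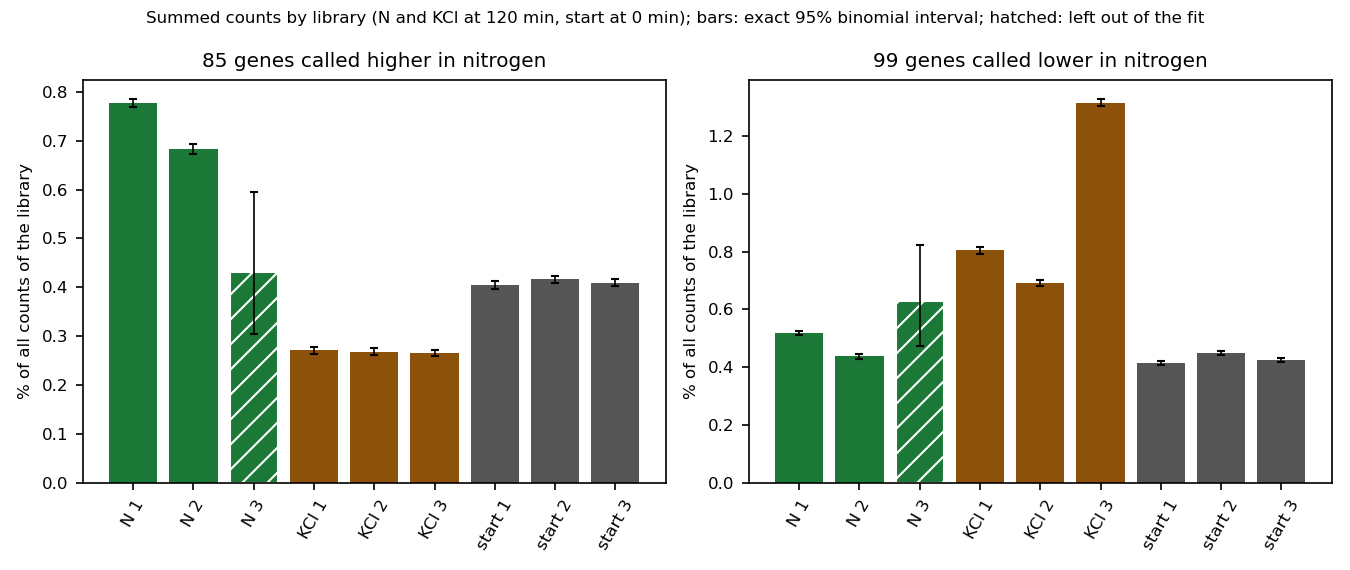
Bars give the percentage of all counts of a library that fell on the 85 genes called higher (left) and the 99 called lower (right) in nitrogen at 120 min, for nitrogen (N) and KCl at 120 min and the start; error bars are exact 95% binomial intervals and the hatched library, with 8560 counts, was left out of the test. The higher genes sit at 0.777% and 0.683% in nitrogen, near 0.27% in KCl and near 0.41% at the start, and KCl replicate 3 stands out at 1.32% on the lower genes.

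Libraries of the earlier times are not shared with those of 120 min, so they show how the called genes had behaved before. Of the 85 higher genes 20 were called higher at 5 min (all genes tested: 8.37%), 2 after 10 min (0.176%), 23 at 15 min (2.61%), 42 after 20 min (12.6%), 46 at 30 min (6.64%), 54 after 45 min (10.7%), 56 at 60 min (9.99%) and 61 after 90 min (3.11%). The median difference of the 85 genes was 0.33 at 5 min, 0.59 after 20 min, 0.99 at 60 min and 1.04 after 90 min on the log2 scale, while that of all genes tested was at most 0.02. Of the 85 genes 73 had been called higher at 1 or more earlier times and 34 at 5 or more of 8, whereas 12 had not been called higher before. Of the 99 lower genes 12 were called lower at 5 min (all genes tested: 9.74%), 0 after 10 min (0.139%), 12 at 15 min (5.3%), 35 after 20 min (13.8%), 14 at 30 min (7.75%), 38 after 45 min (12.9%), 32 at 60 min (10.7%) and 35 after 90 min (3.59%). The median difference of the 99 genes was -0.12 at 5 min, -0.56 after 60 min and -0.65 at 90 min. Of these genes 63 had been called lower at 1 or more earlier times and 36 at none. Averaged over 5 to 90 min, 70 of the 85 were called higher and 3 lower, and 66 of the 99 were called lower and 7 higher, where 30.6% of all genes were called higher and 29% lower.

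**Figure D4:**
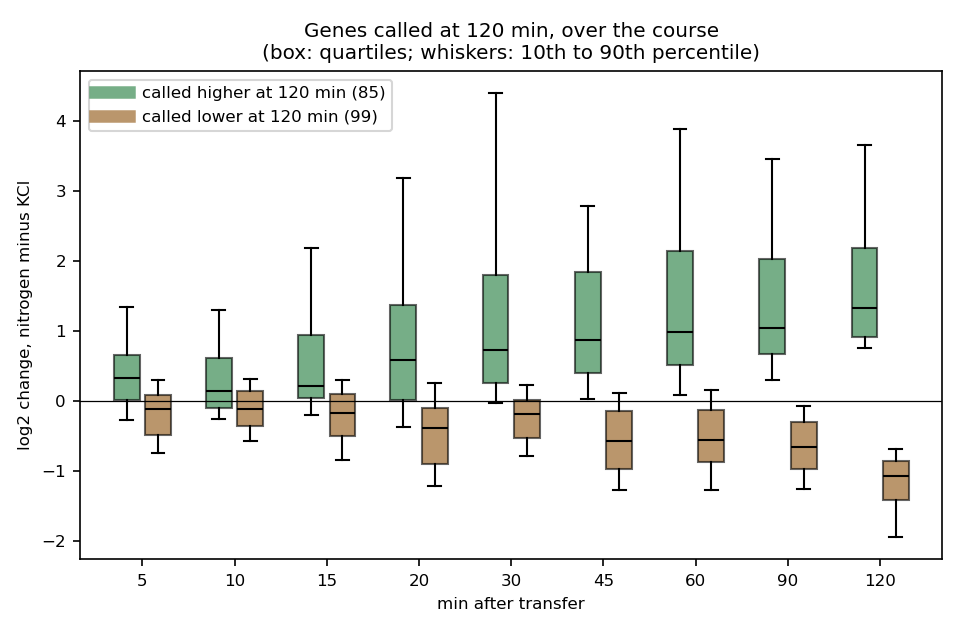
Boxes give the quartiles, centre lines the medians and whiskers the 10th to 90th percentiles of the log2 change, nitrogen minus KCl, at each time, for the 85 genes called higher and the 99 called lower at 120 min. Medians of the higher genes reach 0.99 at 60 min and 1.33 at 120 min; those of the lower genes stand at -0.56 at 60 min and -1.07 at 120 min, where the genes were chosen.

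Turned round, most genes that differed between the media earlier were not called at 120 min. At 60 min 3878 genes differed, or 20.7%. Of the 1876 called higher at 60 min, 56 (2.99%) were called higher at 120 min, against 0.453% of all genes tested. The median log2 difference of the 1876 was 0.70 at 60 min and 0.13 at 120 min. Of the 2002 called lower at 60 min, 32 (1.6%) were called lower at 120 min, against 0.527% of all genes tested. The medians of the 2002 were -0.95 and -0.15. At 120 min the test had 2 nitrogen libraries where it had 3 at 60 min. Among genes over 2-fold higher on average over 5 to 90 min, 29 of 273 (10.6%) were called higher at 120 min. The median difference of the 273 was 1.46 before and 0.83 at 120 min. Among those over 2-fold lower, 5 of 773 (0.647%) were called lower at 120 min, near the 0.527% of all genes tested. The median of the 773 was -1.37 before and -0.24 at 120 min. The larger gap between earlier and later values was in genes lower in nitrogen, though the 2 groups were not tested against each other. All these genes were chosen on their earlier values, so part of each fall at 120 min follows from the choice. How large that part is was not tested.

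The 8 genes with the largest earlier differences in each direction, likewise chosen on those earlier values, are given next. On the higher side 5 of 8 were called at 120 min (all genes tested: 0.453%). In 7 of 8 the nitrogen libraries lay above all KCl libraries (all genes tested: 11.8%). The exception is Zm00001d026413 (chromosome 10, 145391311 to 145392264), with 19.7 and 17.3 CPM in nitrogen, against 0, 1.91 and 23.7 CPM in KCl, where KCl replicate 3 was above both nitrogen libraries. Its log2 change was 0.86, or 4.04 without that library (edgeR adjusted p = 0.134). Zm00001d025873 (chromosome 10, 132238491 to 132239276) had 61.3 and 40.8 CPM in nitrogen, against 1.03, 3.06 and 23.4 CPM in KCl. It missed the threshold with a log2 change of 2.25 (edgeR adjusted p = 0.0898) and passed it without KCl replicate 3, at 4.54 (edgeR adjusted p = 0.0133). Zm00001d017485 had 14.5 and 2.69 CPM in nitrogen, against 0, 0 and 1.08 CPM in KCl, and did not pass (edgeR adjusted p = 0.155). In all 3 the KCl value at 120 min was highest in replicate 3.

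On the lower side 0 of 8 were called at 120 min in edgeR and 0 in DESeq2, and 2 had an unadjusted p under 0.05 in edgeR. Of all genes tested 0.527% were called lower, so 0 of 8 by itself says little. The mean nitrogen levels of these 8 genes stood higher at 90 and 120 min than at 60 min. The plastid gene ndhD (plastid genome, 110138 to 111685, minus strand), which encodes a subunit of the NADH dehydrogenase-like complex and whose model overlaps GRMZM5G806488, averaged 1.68 CPM in nitrogen and 47 CPM in KCl at 60 min. At 90 min it averaged 11.4 CPM in nitrogen and 64 CPM in KCl. At 120 min it had 31 and 17.3 CPM in nitrogen, against 57.7, 21.1 and 65.7 CPM in KCl, and the groups overlapped. Zm00001d030786 (chromosome 1, 159716363 to 159727649, plus strand) averaged 5.45 CPM in nitrogen at 60 min and 19.4 CPM at 90 min. At 120 min it had 99.3 and 21.6 CPM in nitrogen, against 193.7, 39.8 and 123.6 CPM in KCl. The spread within each medium was as wide as the gap between them. Zm00001d002094 had 18.8 and 13.9 CPM in nitrogen, against 14.9, 24.1 and 18.9 CPM in KCl, a log2 change of -0.23 (SE 0.555). The others, at log2 changes between -1.47 and -0.73, are Zm00001d024518, Zm00001d011649, Zm00001d047436, Zm00001d024853 and Zm00001d041734, the last of which overlaps the model Zm00001d041735. The starts of these 8 genes also differed among themselves: start replicate 3 was the highest of the start libraries in each, with 93.8 CPM of ndhD against 1.14 and 2.05 CPM in start replicates 1 and 2.

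**Figure D5:**
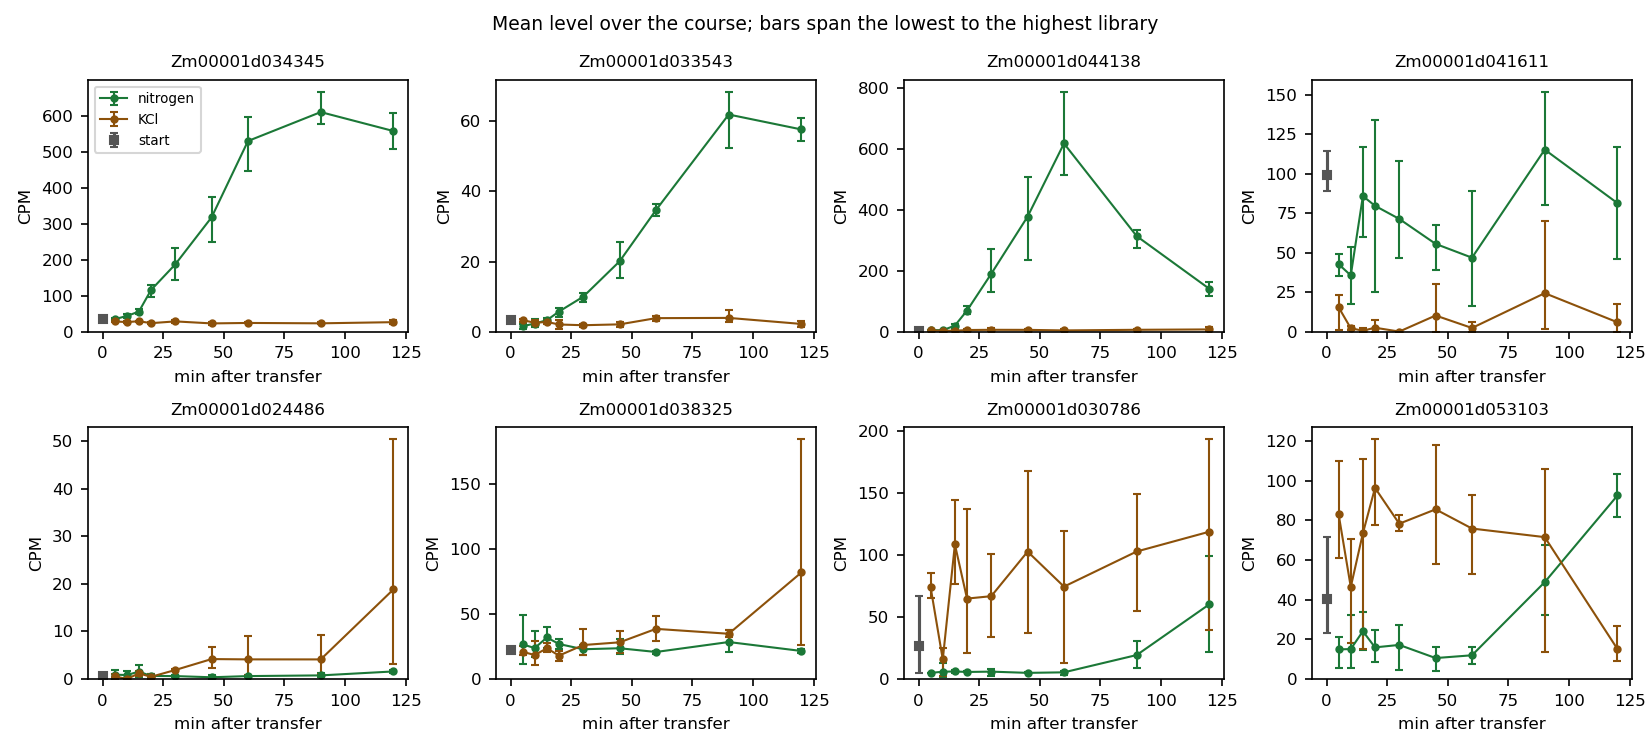
Points are mean CPM at each time in min after transfer, and bars span the lowest to the highest library, for nitrogen, KCl and the start; 8 genes described in the text are drawn, chosen after their values were seen. Zm00001d034345 climbs to 611 CPM at 90 min in nitrogen, Zm00001d044138 peaks at 617 CPM at 60 min, and Zm00001d053103 is higher in nitrogen at 120 min, at 92.5 CPM against 15.1 CPM in KCl, after having been lower before.

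The difference between the media at 120 min was tested against that at 60 min, and 204 genes (1.09%) were called: 125 with a larger value at 120 min (0.666%) and 79 with a smaller one (0.421%), or 175 and 54 when libraries were scaled by their totals alone and 83 and 47 without KCl replicate 3 at 120 min. The largest change was in Zm00001d053103 (chromosome 4, 213945196 to 213945561, minus strand). At 120 min it had 103.4 and 81.6 CPM in nitrogen, against 9.27, 9.19 and 26.9 CPM in KCl. At 60 min it averaged 12 ± 4.3 CPM in nitrogen and 75.8 ± 20.6 CPM in KCl (SD, n = 3 each). It was thus lower in nitrogen at 60 min and higher in nitrogen at 120 min, with a difference of differences of 5.12 (SE 0.872, edgeR adjusted p = 0.00169) that held in 21 of 21 alternatives. The call between the media at 120 min alone (2.51, SE 0.6) was lost when either nitrogen library was left out (edgeR adjusted p = 0.176 and 0.0735), or KCl replicate 1 or 2 (0.0651 and 0.059), and was 3.33 without KCl replicate 3. Its levels crossed late: nitrogen averaged 48.8 CPM and KCl 71.5 CPM at 90 min, and KCl at 90 min ran from 13.6 to 105.9 CPM between libraries. Zm00001d019207 (chromosome 7, 21927733 to 21929407, plus strand) averaged 102.9 ± 22.3 CPM in nitrogen and 22.1 ± 6.19 CPM in KCl at 60 min (SD, n = 3 each). At 120 min it had 44.9 and 24.2 CPM in nitrogen, against 49.5, 31.4 and 32.6 CPM in KCl, so the groups overlapped. Its difference of differences was -2.34 (SE 0.388, edgeR adjusted p = 0.00128), also held in 21 of 21 alternatives.

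Other genes in this contrast had lost a difference seen at 60 min. Zm00001d040368 (4.08), Zm00001d027451 (3.92), Zm00001d001870 (3.66) and Zm00001d044664 (3.16) had been lower in nitrogen at 60 min. At 120 min their log2 changes between the media were 0.09, -0.04, 0.27 and 0.54, and none was called (edgeR adjusted p from 0.764 to 0.994). Over the alternatives the first 3 took either sign, from -0.11 to 0.42, -0.50 to 0.24 and -0.31 to 0.59. Zm00001d027451 had 9.61 and 5.77 CPM in nitrogen, against 5.15, 8.04 and 10.5 CPM in KCl at 120 min, and 0.472 CPM against 7.94 CPM as means at 60 min. In the other direction stood Zm00001d031127 (-3.06), Zm00001d024772 (-2.51), Zm00001d004744 (-1.89) and Zm00001d018220 (-1.88). Zm00001d031127 averaged 41.4 CPM in nitrogen and 9.42 CPM in KCl at 60 min. At 120 min it had 6.41 and 7.7 CPM in nitrogen, against 3.61, 15.7 and 17.8 CPM in KCl, with overlap. Zm00001d003190, at 3.27, lost its call in 11 of 21 alternatives, and the others named here lost theirs in 4 to 12. Without KCl replicate 3 at 120 min 6 of the 12 genes named from this contrast lost it.

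The authors' deposited network table lists 203 regulators, 2732 targets and 1 weight for each of 554596 pairs. All 203 regulators were tested at 120 min: 6 were higher in nitrogen (2.96%, against 0.453% of all genes tested) and 7 lower (3.45%, against 0.527%), with a median log2 change of -0.02. Of the 20 with the most targets of weight above 0, 1 was higher and 0 were lower in edgeR. That gene, Zm00001d001858 (chromosome 2, 2031382 to 2034507, plus strand), ranks 1 of 203 in the authors' deposited table, with a weight above 0 on 2686 targets. It had 6.19 and 8.85 CPM in nitrogen, against 2.06, 1.15 and 1.89 CPM in KCl and 4.57, 4.68 and 3.79 CPM at the start. The libraries of each group were close and the start lay between the media, at a log2 change of 2.09 (SE 0.387, edgeR adjusted p = 0.00114). The gene rested on few counts, 29 and 23 in nitrogen against 4, 3 and 7 in KCl. Its call was lost when the 5 libraries were fitted alone. At 60 min its means had been 6.22 CPM in nitrogen and 4.56 CPM in KCl. Zm00001d015504 (chromosome 5, 94160702 to 94167041, plus strand) had 73.9 and 68.5 CPM in nitrogen, against 30.4, 24.1 and 32.6 CPM in KCl, and was called in 15 of 15 alternatives at a log2 change of 1.29 (SE 0.19). Its nitrogen mean was 30.6 CPM at 20 min, 47.9 after 60 min and 53.1 at 90 min, and KCl stayed between 22.1 and 30.1 CPM throughout.

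Zm00001d005692 (chromosome 2, 183562202 to 183564363) had 19.2 and 8.85 CPM in nitrogen, against 5.15, 3.44 and 5.38 CPM in KCl, a log2 change of 1.63 (SE 0.345) that was not called without nitrogen replicate 1. Zm00001d027855 (chromosome 1, 15365601 to 15366843) had 5.98 and 3.85 CPM in nitrogen, against 0, 0 and 0.808 CPM in KCl and 9.9, 9.65 and 6.55 CPM at the start. With 38 counts in nitrogen and 3 in KCl its ratio was 14.5 (exact 95% counting interval 4.6 to 73.5), and its call was lost when either nitrogen library, KCl replicate 1 or KCl replicate 2 was left out. With KCl replicate 3 left out, KCl held 0 counts and the call stood (edgeR adjusted p = 0.0455). Zm00001d022628, at 0.75, was the remaining higher regulator. Of the 7 lower regulators, Zm00001d008808 (chromosome 8, 21238766 to 21240538) kept its call without KCl replicate 3. It had 31 and 17.3 CPM in nitrogen, against 40.7, 56.6 and 69.7 CPM in KCl, a log2 change of -1.18 (SE 0.189). That change was -0.87 without nitrogen replicate 2 and -1.71 without nitrogen replicate 1. The call was lost without nitrogen replicate 2 and when the 5 libraries were fitted alone. Without KCl replicate 3, Zm00001d028995, Zm00001d022139, Zm00001d020409, Zm00001d005726 and Zm00001d006860 lost their calls (edgeR adjusted p from 0.0589 to 0.128). Their log2 changes with that library ranged from -0.97 to -0.53. Of 2529 other targets 56 were higher (2.21%) and 40 lower (1.58%) at 120 min, against the same 0.453% and 0.527% of all genes, with a median of -0.02. Targets in the authors' deposited table made up 62 of the 85 higher genes (72.9%) and 47 of the 99 lower genes (47.5%), against 14.6% of all genes tested. The sources used here do not say how regulators and targets were chosen for that table, which may rest on these libraries. All 203 regulators and all 2529 other targets passed the filter on low counts, against 18771 of all 46335 genes. The shares of called genes on these lists are therefore a description and no independent evidence.

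Organelle transcripts did not pass the test at 120 min. Plastid genes encode parts of the photosynthetic complexes and of the plastid's own gene expression, and 8 of 74 plastid models could be tested. All 8 changes were negative, at a median of -0.59 on the log2 scale, also under RLE and library total scaling, but 6 were negative without nitrogen replicate 1, 7 without KCl replicate 1 and 7 without KCl replicate 3. In edgeR or DESeq2 0 of them were called, with 1 at an unadjusted p under 0.05. At the 0.98% called over all genes 0.0784 calls would fall among 8 genes, 0.245 among the 25 mitochondrial models and 1.44 among the 147 non-coding genes below, so the counts of 0 say little about these lists. The model of rps16, a ribosomal protein gene (3363 to 5604), had 1804 and 1841 CPM in nitrogen, against 3734, 2130 and 3457 CPM in KCl and 1407, 1476 and 3258 CPM at the start. Nitrogen libraries lay below all KCl libraries, while start replicate 3 reached the KCl range, and the log2 change was -0.77 (SE 0.47, edgeR adjusted p = 0.574). The intron maturase gene matK had 328 and 566 CPM in nitrogen, against 625, 532 and 517 CPM in KCl, with overlap, at -0.32. A model over clpP, rps12, rpl20, rps18, psaJ and rpl33 had 7.05 and 16.9 CPM in nitrogen, against 27.3, 28.7 and 14.3 CPM in KCl, at -1.02 (SE 0.492). That model, ndhA and the model over psbC overlap other models, whose reads cannot be told apart from theirs. A model over petB and psbH stood at -0.55, ndhA at -0.62, a model over psbC, psbD, psbI, psbK and psbZ at -0.32 and a model over atpH and atpI, present at under 2 CPM, at -0.45. Of 25 mitochondrial models tested, 0 were called in edgeR or DESeq2, 2 had an unadjusted p under 0.05, and the median log2 change was 0.04. At 60 min that median had been 0.81. Of 147 other nuclear non-coding RNA genes tested 0 were called in edgeR or DESeq2, with 6 at an unadjusted p under 0.05. Of 154 microRNA genes 0 passed the filter on low counts.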

How the data were processed

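Shoot RNA was profiled by 3' end sequencing with unique molecular identifiers (QuantSeq), per the labels' protocols. The count table was deposited by the authors as whole-number counts per gene, not normalized. STAR 2.7.6a, featureCounts 2.0.1, fastp 0.21.0 and UMI-tools 1.1.1 are named in the submitters' processing notes. The file header instead gives featureCounts 1.5.1, an AGPv4 annotation (release 37) and a call that sets no strand. A quantile-normalized table, also deposited by the authors, is treated as a score, since its values are rounded and share 1 total. It covers 18370 genes and only replicates 1 and 2 of each medium at 120 min. The network table's weight is likewise a score deposited by the authors. The making of both is not given in the sources used. Of the count columns, 2 match no labelled sample and were not used.

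The counts were modelled with edgeR 4.0.16 in R 4.3.3, after TMM scaling and filterByExpr, with 19 group means over 56 libraries and quasi-likelihood F tests, two-sided, adjusted by Benjamini-Hochberg over 18771 of 46335 genes. SEs were derived from the F statistic (absolute log2 change over its square root). The test was tried on simulated counts in which the libraries of a group shared their means. No simulated library stood apart as KCl replicate 3 did, so that trial says nothing about calls that rest on it. Alternatives used DESeq2 1.42.0 and limma 3.58.1. Intervals cover counting error only. Named genes were chosen by size of change with a mean CPM not under 5. They are the 12 largest non-overlapping called changes per direction at 120 min and the 8 largest called per direction over 5 to 90 min. The 6 largest called per direction between 120 and 60 min were also taken. With no such minimum, the 6 called regulators with most targets of weight above 0, the 4 with the largest change and the tested plastid models were added. Plastid names come from RefSeq's table for another assembly, where exactly 1 protein-coding gene shares a model's start or end. The members, lists and tests were chosen with earlier results of these data known.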

Additional observations from a re-analysis of the deposited data

Results flagged for a closer look

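The difference between the media at 120 min departed from that at 60 min in 204 genes, by edgeR's test of the difference of differences. The values named by rule were 5.12 for Zm00001d053103, 4.08 for Zm00001d040368, 3.92 for Zm00001d027451, 3.66 for Zm00001d001870, 3.27 for Zm00001d003190 and 3.16 for Zm00001d044664 on the log2 scale, where the nitrogen minus KCl value was larger at 120 min. They were -3.26 for Zm00001d044138, -3.06 for Zm00001d031127, -2.51 for Zm00001d024772, -2.34 for Zm00001d019207, -1.89 for Zm00001d004744 and -1.88 for Zm00001d018220, where it was smaller at 120 min. Leaving out single libraries moved the count of 204 to 5 without KCl 60 min replicate 1, 7 without nitrogen 60 min replicate 1 and 8 without nitrogen 120 min replicate 1, and Zm00001d053103 and Zm00001d019207 kept their calls in 21 of 21 alternatives.

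Nitrogen 120 min replicate 3, which entered no comparison, had 0.432% of its 8560 counts on the 85 genes called higher in nitrogen, above the 0.265% to 0.271% of the KCl libraries and below the 0.683% and 0.777% of the other two nitrogen libraries. Its interval, 0.304% to 0.595%, also held the 0.405% to 0.417% of the start libraries. On the 99 lower genes it had 0.631% (0.474% to 0.822%), above nitrogen replicate 2 at 0.437% and below KCl replicate 2 at 0.692%, with an interval that held both nitrogen replicate 1 at 0.519% and KCl replicate 1 at 0.805%. On the 85 higher genes it thus lay below both other nitrogen libraries, on which those genes were chosen, by more than counting error. On the 12 named higher genes it held 5 counts, or 0.0584% (0.019% to 0.136%), likewise below 0.203% and 0.153% in nitrogen replicates 1 and 2.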

How the results depend on the processing

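Between nitrogen and KCl at 120 min 184 genes were called. There were 524 with no filter on low counts, 334 with the first axis of within-group deviation as a covariate, 96 (80 higher and 16 lower) in the authors' quantile-normalized table, which holds 2 libraries per medium at this time, and 20 (20 higher and 0 lower) with only the 5 libraries fitted, where fewer samples set the spread. Leaving out 1 library gave 60 (without nitrogen replicate 2) to 418 (without KCl replicate 2), with 85 without nitrogen replicate 1 and 91 without KCl replicate 3. For the difference at 120 min against that at 60 min, 204 genes became 1016 with no filter, 1436 with the covariate, 126 in the quantile table, 108 with only the groups compared and 5 to 727 leaving out 1 library. For nitrogen against the start, 275 became 576 with no filter, 539 with the covariate and 51 to 364 leaving out 1 library. For KCl against the start, 2096 became 1022 in the quantile table (479 higher and 543 lower), 462 with only the groups compared and 893 (445 higher and 448 lower, without KCl replicate 3) to 2519 leaving out 1 library. The causes were not tested. RLE factors, library totals, a 5 CPM minimum, DESeq2 and all 57 libraries kept each count within 1.5 times.

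Whether replicate numbers pair the samples cannot be told from 2 pairs, and the main fit used no pairing. Same-numbered nitrogen and KCl libraries at 120 min correlated at -0.0275 and 0.208 in their deviations from the group means. With 2 nitrogen libraries those deviations mirror each other, so the 2 values are not independent. At 60 min the values were -0.102, 0.0276 and 0.0126. With the replicate block 152 genes were called between the media at 120 min (82 higher and 70 lower) and 135 in the contrast with 60 min. For single named genes 750 values kept direction and call, 163 kept direction and lost the call and 11 gained it. The other 4, all of plastid models called in no setting, turned sign. The changes between the media at 120 min of Zm00001d040368, Zm00001d027451 and Zm00001d001870 also took either sign and are not among these 4. Those genes were named from the contrast with 60 min, which kept its sign in each. Leaving out 1 library, matK ran from -0.77 to 0.02 and ndhA from -1.31 to 0.03 (both highest without nitrogen replicate 1), the model over psbC from -0.73 to 0.01 (without KCl replicate 1) and the model over atpH and atpI from -1.19 to 0.59 (without KCl replicate 3). For genes of few counts, a difference that missed the threshold with 2 nitrogen libraries is not shown to be absent.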
